A study of Mus musculus with 6 samples.

Results

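The activator protein 1 (AP-1) and immediate early transcription factors were examined in the endothelial RNA-seq of the Dot1l study, as the 10 genes Fos, Fosb, Fosl1, Fosl2, Jun, Junb, Jund, Egr1, Atf3 and Ier2 among the 24421 gene symbols of the count table. The genes were chosen by name, with their CPM in the 6 libraries and their 3 ratios of changed over control library already known, so these measured values are what the members were selected on. Their levels and ratios are therefore given as a description, with no test. All 10 were found in the table, and in every comparison 9 of them reached 100 normalized counts in 1 or both libraries. Fosl1 was the exception, with at most 3 reads in either skin library.

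Dot1l encodes a histone methyltransferase. Cont BECs were blood endothelial cells from the skin of E15.5 Tie2-Cre(-); Dot1l 2f/2f embryos, and cKO BECs came from Tie2-Cre(+); Dot1l 2f/2f embryos of the same stage, so both groups carry the floxed alleles and the Cre is driven by the endothelial Tie2 promoter. The skins were dissociated with collagenases, and CD31-positive cells negative for F4/80, CD45 and Lyve1 were kept. The cultured groups were the yolk sac BEC line CRL-2581 and dermal LECs (lymphatic endothelial cells, C57-6064L). OE-BECs and OE-LECs carried a lentivirus with dCas9-VP64 and guide RNAs against the Dot1l promoter, and their Cont BECs and Cont LECs received empty lentivirus. Transduced cells were sorted by GFP, which the vector carries. RNA of 2 to 3 embryos, or cells of 2 to 3 flasks, were pooled into 1 library per group. No group has a replicate, and each comparison describes 2 libraries and not the spread of a condition.

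AP-1 is a dimer of basic leucine zipper (bZIP) proteins. FOS proteins bind DNA only together with a JUN protein, whereas JUN proteins can also pair with each other. Fos, Fosb, Jun, Junb, Egr1, Atf3 and Ier2 belong to the immediate early genes, whose transcripts appear within minutes of growth factors, shear stress, cytokines or tissue dissociation without new protein synthesis, while Fosl1 and Fosl2 follow later and last longer. In endothelium these factors act downstream of the ERK and JNK kinases and control genes of migration, matrix turnover and inflammation.

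The library totals ran from 8863349 to 31032461 reads. Levels are given as CPM (counts scaled to 1000000 reads in total), and 3 reads, taken here as the floor, were 0.338 CPM in the shallowest library and 0.0967 CPM in the deepest. Dot1l had 86.0 CPM in Cont BECs of the skin and 85.2 CPM in cKO BECs, so the reads over the whole gene did not show the deletion. Counts per gene do not show which exons the reads came from. The study reports the knockout from an unreplicated RT-qPCR in which Dot1l was normalized to Gapdh. Gapdh itself had a log2 ratio of 0.76 (interval 0.67 to 0.85) between these skin libraries, and Dot1l -0.07 (interval -0.21 to 0.07). The part of Gapdh in the RT-qPCR result was not tested. The second skin library is called the library labelled cKO. Dot1l was 2.78-fold higher in OE-BECs and 2.30-fold higher in OE-LECs. The identity markers went partly with and partly against the labels. No cultured library, LEC or BEC, held a read of Prox1 (0 reads), which specifies lymphatic endothelial fate, but the skin BEC libraries held 1304 and 883. Lyve1, against which the skin cells were depleted, had 9105 and 19959 reads there. In culture Lyve1 went with the labels, at 1998 and 1962 CPM in the LEC pair and 604 and 1061 CPM in the BEC pair. The lymphatic list as a whole did so less. Of its 7 genes, 2 were above the floor in Cont LECs and 2 in OE-LECs, against 3 in cultured Cont BECs and 2 in OE-BECs. The number detected thus did not set the LECs apart. The 12 macrophage genes summed to 4066 and 6369.6 CPM and the 12 fibroblast and pericyte genes to 3061 and 2315 CPM in the skin libraries, whereas all 4 cultured libraries were under 100 CPM for either list. In such mixed bulk RNA, fewer cells of a type and less RNA per cell cannot be told apart.

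The upstream sequences of 4 members are shown because Fos and Fosb were the FOS genes with the widest span of levels among those detected in every library, and Jun and Atf3 were higher in both overexpressing libraries. Each is the 250 bases before the RefSeq start (GRCm38.p6, the assembly of mm10), 5′ to 3′ on the strand of the gene. Capitals mark the letters TGACG (a half-site of the cAMP response element, on either strand), TGACNTCA (a full site of that kind, to which ATF and JUN proteins bind) and TATAAA.
Fos (chr12:85473640-85473889, plus strand): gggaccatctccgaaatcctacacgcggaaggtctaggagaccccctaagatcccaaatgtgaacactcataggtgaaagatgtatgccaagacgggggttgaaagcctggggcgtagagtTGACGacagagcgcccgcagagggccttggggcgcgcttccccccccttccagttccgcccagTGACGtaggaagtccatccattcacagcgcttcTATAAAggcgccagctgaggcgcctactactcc
Fosb (chr7:19310046-19310295, minus strand): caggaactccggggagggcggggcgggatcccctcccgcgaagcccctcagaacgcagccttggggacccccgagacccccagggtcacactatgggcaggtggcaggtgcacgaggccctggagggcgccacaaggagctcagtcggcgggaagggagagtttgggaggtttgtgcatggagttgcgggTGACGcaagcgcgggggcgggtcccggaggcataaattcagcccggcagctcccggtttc
Jun (chr4:95052223-95052472, minus strand): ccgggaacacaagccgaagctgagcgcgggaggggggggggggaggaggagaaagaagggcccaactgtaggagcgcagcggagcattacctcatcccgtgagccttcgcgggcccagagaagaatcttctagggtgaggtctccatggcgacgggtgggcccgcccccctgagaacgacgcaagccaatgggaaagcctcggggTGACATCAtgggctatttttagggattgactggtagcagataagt
Atf3 (chr1:191183334-191183583, minus strand): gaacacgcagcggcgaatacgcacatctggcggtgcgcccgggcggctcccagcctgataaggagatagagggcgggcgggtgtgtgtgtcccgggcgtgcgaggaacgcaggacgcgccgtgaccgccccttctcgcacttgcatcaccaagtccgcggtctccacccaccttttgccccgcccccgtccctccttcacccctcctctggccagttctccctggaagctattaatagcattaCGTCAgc
The promoter table held 7 of the 10 members. TGACG was present in 4 of these 7 windows (Fos, Fosb, Junb and Atf3), against 17.8% of the 32851 windows of all genes. TGACNTCA was in 1 window, that of Jun (45 to 38 bases before the start), against 7.49% of all windows. TATAAA was in that of Fos alone (12.4% of all windows). The AP-1 letters TGANTCA and the CArG box of serum response factor were in none of the 7 windows (6.75% and 1.47% of all windows). The GC box GGGCGG, which is not capitalised, was in 5 of the 7 and in 32.7% of all windows. A match describes letters only, sites outside the 250 bases were not searched, and binding was not measured here. The RefSeq start used can differ from the GENCODE gene span. The window of Jund (chr8:70697489-70697738) held none of the searched letters and ended before the GENCODE gene, which starts at 70698949. It may thus not be the sequence next to the start of Jund. The windows of Atf3 and Fosl2 lay inside their GENCODE genes.

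**Figure D1:**
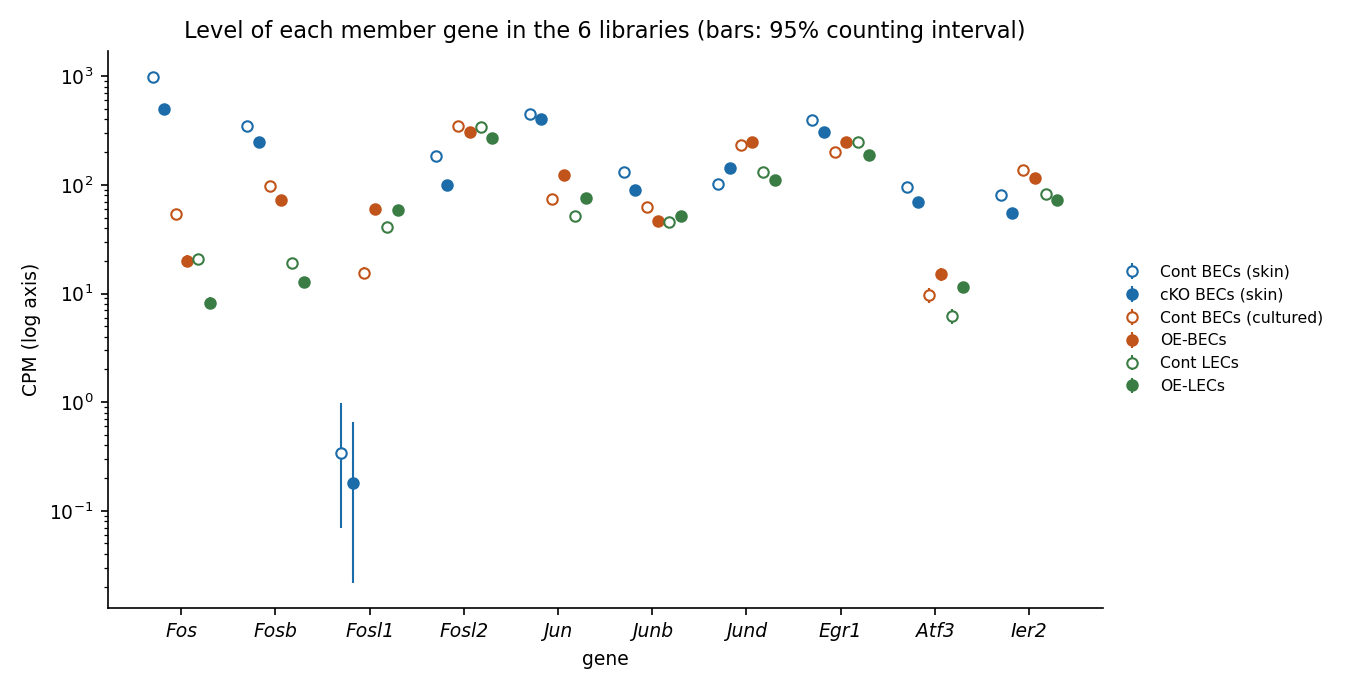
Level of each gene in CPM on a log axis, with 1 point per library (open, control; filled, changed) and its exact 95% Poisson counting interval. Fos ran from 8.18 to 983 CPM, and Fosl1 was near 0 in the skin libraries and between 15.49 and 60.2 CPM in the cultured ones.

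Fos (chromosome 12 of mm10, 85473890 to 85477273), the founding FOS gene, had the widest span of the members detected in every library. It had 983 CPM in Cont BECs and 494 CPM in the library labelled cKO, 53.5 CPM in cultured Cont BECs and 19.95 CPM in OE-BECs, and 20.9 CPM in Cont LECs and 8.18 CPM in OE-LECs. The highest and lowest libraries were thus 120.1-fold apart, and the changed library was the lower one in each pair. Per kilobase of exon, among the 23376 genes with a known length, Fos ranked 26 in the Cont BECs of the skin and 8019 in OE-LECs. Only Cont LECs and OE-BECs had overlapping counting intervals among the neighbours in this order.

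Fosb (chromosome 7, 19302696 to 19310051) encodes a FOS protein with several spliced forms, which counts per gene do not separate. It had 352 and 248 CPM in the skin pair, 97.3 and 72.5 CPM in the cultured BEC pair, and 18.9 and 12.7 CPM in the LEC pair. Each changed library was below its control, skin was highest and the LEC pair lowest, with no overlap of intervals between neighbours.

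Fosl1 (chromosome 19, 5447547 to 5455946) encodes FRA-1, a FOS protein without the transactivation domain of Fos. It had 3 reads in Cont BECs of the skin and 2 in the library labelled cKO, both within the floor, so no fold is given for that pair. In culture it had 15.49 CPM in Cont BECs, 60.2 CPM in OE-BECs, 41.1 CPM in Cont LECs and 59.3 CPM in OE-LECs. The overexpressing libraries were the highest, did not differ from each other beyond their intervals, and lay above both controls. Fosl1 overlaps Ccdc85b on the opposite strand. VERSE was run with its -S option, but whether strand was used in counting is not spelled out in the sources used here, so reads of overlapping genes may not be told apart. Ccdc85b had a log2 ratio of 0.42 in OE-BECs and -0.20 in OE-LECs.

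Fosl2 (chromosome 5, 32135801 to 32157842) encodes FRA-2. Its levels were 185 and 98.7 CPM in the skin pair, 345 and 308 CPM in cultured Cont BECs and OE-BECs, and 339 and 270.4 CPM in Cont LECs and OE-LECs. Unlike Fos and Fosb it was higher in all 4 cultured libraries than in either skin library. The control BECs and control LECs in culture did not differ beyond their intervals.

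Of the JUN genes, Jun (chromosome 4, 95049034 to 95052222) had 454 and 401 CPM in the skin pair, 73.8 CPM in cultured Cont BECs, 124 CPM in OE-BECs, 52.2 CPM in Cont LECs and 75.6 CPM in OE-LECs. Jun encodes the main transactivating partner of FOS proteins. In each cultured pair its level was higher after overexpression, opposite to Fos. Jun overlaps the antisense gene Junos, which was not analysed here, so its counts and the ratios built on them carry the same uncertainty. Junb (chromosome 8, 84974484 to 84978718), a partner with weaker transactivation, had 131 and 89.9 CPM in the skin pair, 62.3 and 46.7 CPM in the BEC pair, and 45.4 and 51.7 CPM in the LEC pair. Prdx2 overlaps Junb on the other strand, with log2 ratios of -0.26, -0.02 and 0.16 in the same order. Jund (chromosome 8, 70698949 to 70700616), the JUN gene that is expressed most constantly, had 103 and 142 CPM in the skin pair, 235 and 246 CPM in the BEC pair, and 130.1 and 111 CPM in the LEC pair. Its span over the 6 libraries was 2.40-fold, against 8.69-fold for Jun and 2.88-fold for Junb.

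Egr1 (chromosome 18, 34859823 to 34864984) encodes a zinc finger factor driven by ERK signalling. It had 399 and 305 CPM in the skin pair, 201 and 247 CPM in the BEC pair, and 248 and 189 CPM in the LEC pair. It had the narrowest span of the 10 genes, 2.11-fold. Atf3 (chromosome 1, 191170296 to 191218039), a stress-induced bZIP factor that mostly represses, had 95.2 and 69.2 CPM in the skin pair, 9.61 and 15.1 CPM in the BEC pair, and 6.20 and 11.6 CPM in the LEC pair. Atf3 followed Jun: both were highest in skin and higher in each overexpressing library than in its control. Ier2 (chromosome 8, 84661331 to 84662852), a nuclear regulator of transcription without a bZIP domain, had 80.7 and 55.6 CPM in the skin pair, 138 and 116 CPM in the BEC pair, and 82.5 and 72.6 CPM in the LEC pair. The intervals take in the error of counting alone: reads amplified by PCR carry no molecular identifiers here and may repeat a molecule.

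The control libraries of skin and culture differed most in Fos and Fosl1, in opposite directions. Fos was 18.4-fold higher in Cont BECs of the skin than in cultured Cont BECs and 47.1-fold higher than in Cont LECs. Atf3 was 9.91-fold and 15.4-fold higher, Jun 6.15-fold and 8.69-fold, and Fosb 3.62-fold and 18.6-fold. Fosl1 was at least 45.8-fold lower in skin than in cultured Cont BECs and at least 121-fold lower than in Cont LECs, against the floor of 3 reads in the skin library. Jund and Fosl2 were lower in skin than in either culture, and Ier2 was lower than in cultured Cont BECs but within the counting intervals of Cont LECs. Tissue source, dissociation, the mixture of cells, lentivirus, sorting, culture and cell line all differ between these libraries and cannot be told apart.

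Per kilobase of exon, the makeup of the FOS family differed between skin and culture and between the libraries of each cultured pair. In Cont BECs of the skin, Fos gave 84.7% of the family sum and Fosl2 3.87%. In cultured Cont BECs the shares were 27.9% for Fos, 19.1% for Fosb, 9.34% for Fosl1 and 43.7% for Fosl2. In OE-BECs they were 10.4% for Fos, 14.2% for Fosb, 36.3% for Fosl1 and 39.0% for Fosl2. The sum of the family was nearly the same in that pair, 81.6 and 81.5 CPM per kb, so on this scale the makeup differed and the total hardly did. The sum depends on the lengths used, and only the shares were taken with another length. In LECs the share of Fosl1 was 30.1% in the control and 46.6% after overexpression, while Fos went from 13.2% to 5.56%, with sums of 67.1 and 62.6 CPM per kb. In the skin pair Fos went from 84.7% to 80.8% and Fosb from 11.4% to 15.3%, and the sum was 494 CPM per kb in Cont and 260.2 CPM per kb in its counterpart.

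**Figure D2:**
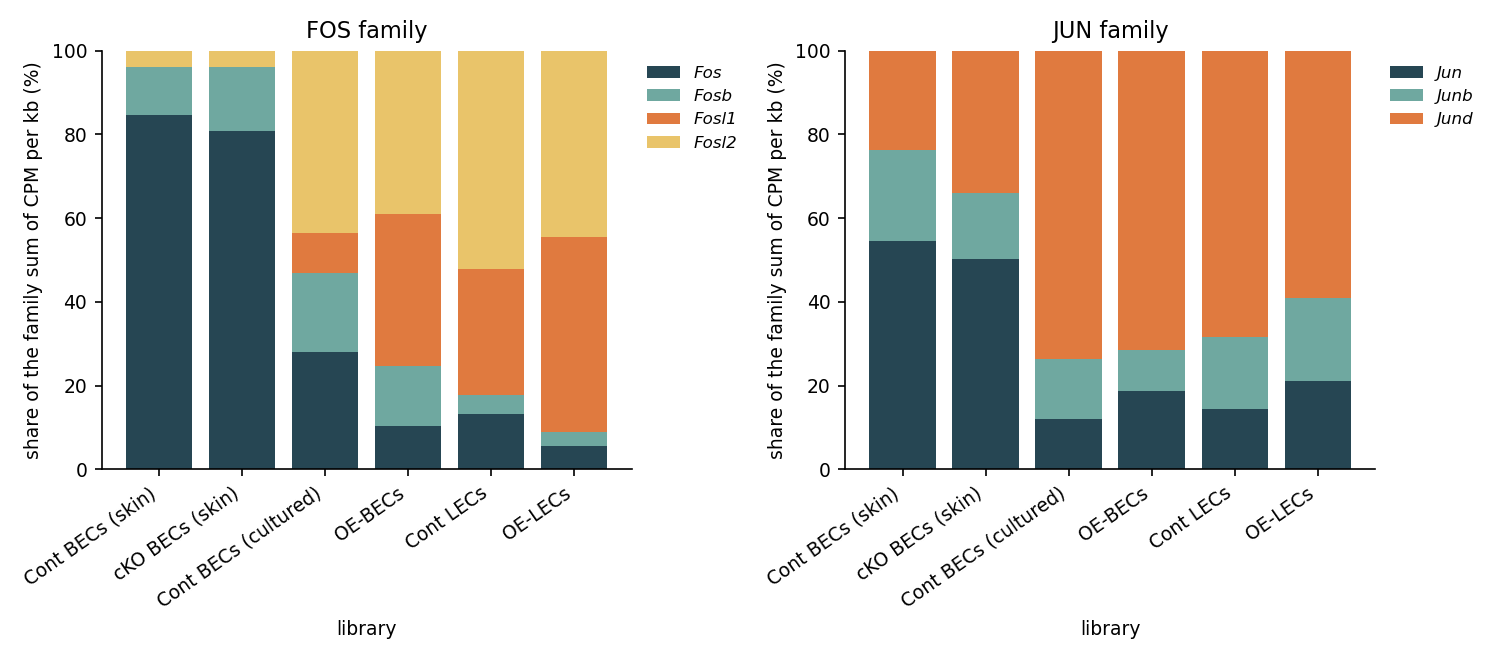
Share of each gene in the summed CPM per kb of exon of the FOS family (left) and the JUN family (right), 1 bar per library. Fos made 84.7% and 80.8% of its family in the skin libraries, and Fosl1 made 9.34% and 36.3% in the cultured BEC pair.

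In the JUN family, Jun gave the largest share in skin (54.6% and 50.3%) and Jund the largest in culture, between 59.0% in OE-LECs and 73.7% in cultured Cont BECs. The share of Jun was 12.1% and 18.7% in the BEC pair and 14.4% and 21.1% in the LEC pair. The sum of the family was 261 and 249.7 CPM per kb in skin, 191 and 207 CPM per kb in BECs, and 114 and 113 CPM per kb in LECs.

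In the skin, 8 of the 9 detected members had fewer normalized counts in the library labelled cKO, as did 49.7% of all genes tested. Ratios were taken between counts normalized by the median of ratios on each pair, with an exact 95% interval on the reads, and a gene was called when it was more than 3-fold apart with at least 5 (cKO) or 3 (OE) normalized counts in the higher library. None of the members was called in the skin pair, while 5.94% of the 15554 genes with at least 10 reads were. Fos had 9930 and 4808 normalized counts, 2.07-fold lower (log2 ratio -1.05, interval -1.10 to -0.997). Fosl2 was 1.95-fold lower (log2 ratio -0.96, interval -1.07 to -0.85). Fos and Fosl2 were thus the lowest members, and Fos alone was past 2-fold, as were 4.33% of all genes in that direction. Scaled by library totals, with or without Rn45s, Fos was just short of 2-fold (log2 ratio -0.991 and -0.992). Junb (-0.60), Ier2 (-0.59), Fosb (-0.56), Atf3 (-0.52), Egr1 (-0.44) and Jun (-0.24) had smaller log2 ratios. Jund was the one member on the other side, with a log2 ratio of 0.41 (interval 0.29 to 0.53). The interval lay below 0 for 8 members, and for 25.4% of all genes tested, and above 0 for 1 member and 23.1% of all genes. The median log2 ratio of the 9 members was -0.56, against 0.00 over all genes tested.

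**Figure D3:**
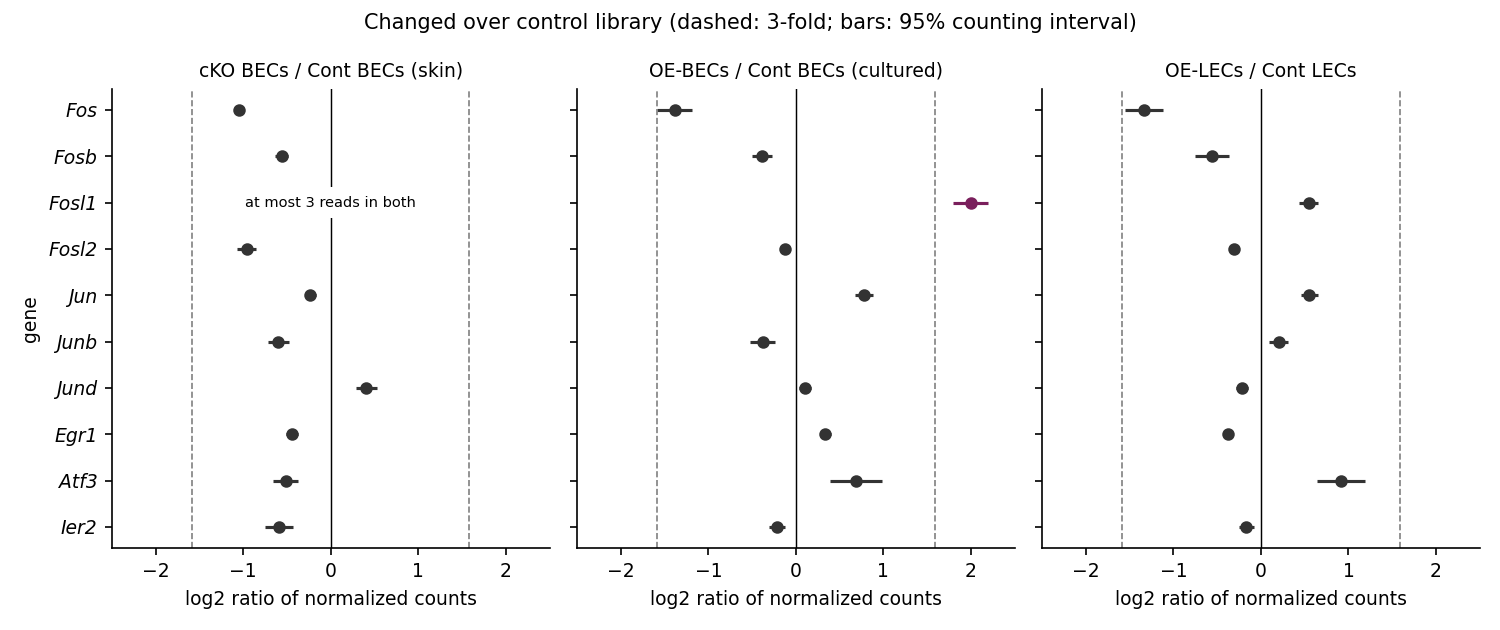
Log2 ratio of normalized counts, changed over control library, for each gene (points) with its exact 95% counting interval, in the 3 pairs; dashed lines mark 3-fold and purple marks the called gene. Fos lay below 0 in every pair (-1.05, -1.39 and -1.33), and Fosl1 in OE-BECs (1.997) was the single call.

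Of 20 other immediate early genes, 15 of the 19 above the floor were lower in the library labelled cKO, with a median log2 ratio of -0.67. Of these, Ptgs2, the inducible prostaglandin synthase, was called lower (418 and 141 reads, log2 ratio -1.95) and Arc was called higher on 12 and 72 reads. Nr4a2, Nr4a3, Btg2, Zfp36, Klf4 and Csrnp1 were past 2-fold lower without a call. The names of these 6 and of Arc were chosen after their values were seen. Of the 10 heat shock genes, 8 were higher and 2 lower in the library labelled cKO, with a median log2 ratio of 0.30. Hspa1a had 22 and 271 reads and Hspa1b 29 and 319 reads, both called higher. These copies are near-identical so that their split is uncertain. The other 8 heat shock genes had log2 ratios between -0.36 and 0.67.

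Cell type markers differed between the skin libraries as well. The summed level of the 12 blood endothelial genes was 6896 CPM in Cont BECs and 4469.7 CPM in the other skin library, with 10 of 12 lower (median log2 ratio -0.66). Of the macrophage genes 11 of 12 were higher (median 0.72), of the keratinocyte genes 8 of 12 (292 and 449 CPM), and of the mast cell genes 4 of 7 (2167 and 3064 CPM). The other 3 mast cell genes were lower, and Mrgprb1, named after its value was seen, was called lower (191 and 4 reads). Fibroblast and pericyte genes were lower in 10 of 12, and 8 skeletal muscle genes summed to 23.5 and 27.5 CPM. Of 7 lymphatic genes, Ccl21a had 0 reads in every library, and 4 of the other 6 were lower. The part of these differences in the levels of the members was not tested.

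In OE-BECs, the members split evenly: 5 were higher and 5 lower than in cultured Cont BECs, all 10 with intervals apart from 0. Of all genes tested 27.4% had an interval above 0 and 30% below it, and 51.2% were lower. Fosl1 rose 3.99-fold, on 274 reads before and 839 after overexpression (log2 ratio 1.997, interval 1.80 to 2.20). It was the 1 member called, where 3.25% of the 13396 genes tested were called higher and 6.71% in either direction. Of the 9867 genes that reached 100 normalized counts, 0.527% were called higher. Jun was 1.72-fold higher (log2 ratio 0.78, interval 0.68 to 0.89) and Atf3 1.61-fold higher on 170 and 210 reads (0.69, interval 0.39 to 0.99). Egr1 (0.34) and Jund (0.10) were higher by less. On the lower side, Fos had 947 and 278 reads and was 2.61-fold lower (log2 ratio -1.39, interval -1.58 to -1.19), short of the call, with 7.17% of all genes past 2-fold lower. Fosb (-0.39), Junb (-0.38), Ier2 (-0.21) and Fosl2 (-0.13) followed. The median of the 10 was -0.01, as for all genes tested (-0.01).

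Among the related genes, the AP-1 targets were the list with the highest median in OE-BECs. Of 18 such genes of matrix turnover, growth and inflammation, 13 of the 16 above the floor were higher, with a median log2 ratio of 1.10. Of all 13396 genes tested, 6538 were higher, with a median of -0.01. The lists were drawn up with earlier results of these data known, so the order of their medians is a description only. Mmp3 (stromelysin) rose from 66 to 224 reads. In the study Mmp3 was also followed by RT-qPCR in these cells. Ccnd1 (cyclin D1) rose 3.82-fold, from 7472 to 21898 reads, and Ereg (epiregulin) rose from 173 to 478 reads (log2 ratio 1.85). The remaining calls were Mmp13 (1 and 12 reads) and Mmp9 (5 and 0 reads). Cd44, Cxcl1, Hbegf and Plaur were among those past 2-fold higher without a call. Other immediate early genes had a median of -0.19, with 9 higher and 10 lower. Btg2, an antiproliferative gene, fell 3.46-fold, from 3109 to 689 reads, and Nr4a3 fell on 30 and 6 reads, while Arc (12 and 65 reads) and Gadd45b (18 and 47 reads) rose. Of 14 related bZIP genes 8 of 11 were higher and Batf3 was called (62 and 187 reads). Of the list genes named for OE-BECs, all but Mmp3, Ccnd1, Ereg, Btg2 and Batf3 were chosen after their values were seen, and so were Mapk3 and Mapk8.

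The kinases and factors upstream of AP-1 were mostly lower in OE-BECs, 13 of 19, with a median of -0.20 and no call. Mapk3, which encodes ERK1, had a log2 ratio of -0.59, and Mapk8, which encodes JNK1, 0.31. Heat shock genes were higher in 9 of 10 (median 0.60, no call). Blood endothelial genes were lower in 11 of 12, with a summed level of 9111 and 5783 CPM. Rn45s, the ribosomal precursor, made up 5.91% of the control library and 10.9% of the OE-BEC library. The part of these in the values of the members was not tested, and macrophage genes summed to 64.9 and 34.4 CPM. None of the 7 mast cell genes was above the floor.

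In OE-LECs, none of the 10 members was called, and 2.36% of the 13028 genes tested were. Of the members, 4 had the interval above 0 and 6 below it, against 24.2% and 21.4% of all genes tested, of which 49.1% were lower. Fos again was the lowest, 2.52-fold below its control on 545 and 254 reads (log2 ratio -1.33, interval -1.55 to -1.11), where 2.59% of all genes were past 2-fold lower. Fosb had a log2 ratio of -0.56 (interval -0.75 to -0.36), Egr1 -0.37, Fosl2 -0.31, Jund -0.21 and Ier2 -0.17. Atf3 was the highest, 1.89-fold on 162 and 359 reads (0.92, interval 0.65 to 1.19). Jun (0.55, interval 0.46 to 0.65) and Fosl1 (0.55, interval 0.44 to 0.66) had equal ratios, and Junb was at 0.20. The median of the 10 was -0.19, against 0.00 over all genes tested.

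AP-1 targets in OE-LECs, a list drawn up with earlier results known, had a median log2 ratio of 0.58, with 11 of 17 higher. Of all 13028 genes tested, 6626 were higher. Mmp3 rose 3.10-fold, from 292 to 1063 reads, and Mmp10 rose on 4 and 23 reads, while Icam1 fell on 14 and 4 reads. Timp1, Mmp13 and Areg were past 2-fold higher and Il6 past 2-fold lower, on 114 and 61 reads. Other immediate early genes were higher in 14 of 19 (median 0.22), and Ptgs2 had the highest ratio, on 3403 and 9408 reads, without a call. Apart from Mmp3, these genes were named after their values were seen. The other lists had no call either: the median was -0.11 for related bZIP genes, -0.06 for upstream kinases and factors, and 0.23 for heat shock genes. Blood endothelial genes were lower in 10 of 12 (7594 and 6712 CPM), and macrophage genes summed to 94.7 and 81.7 CPM.

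**Figure D4:**
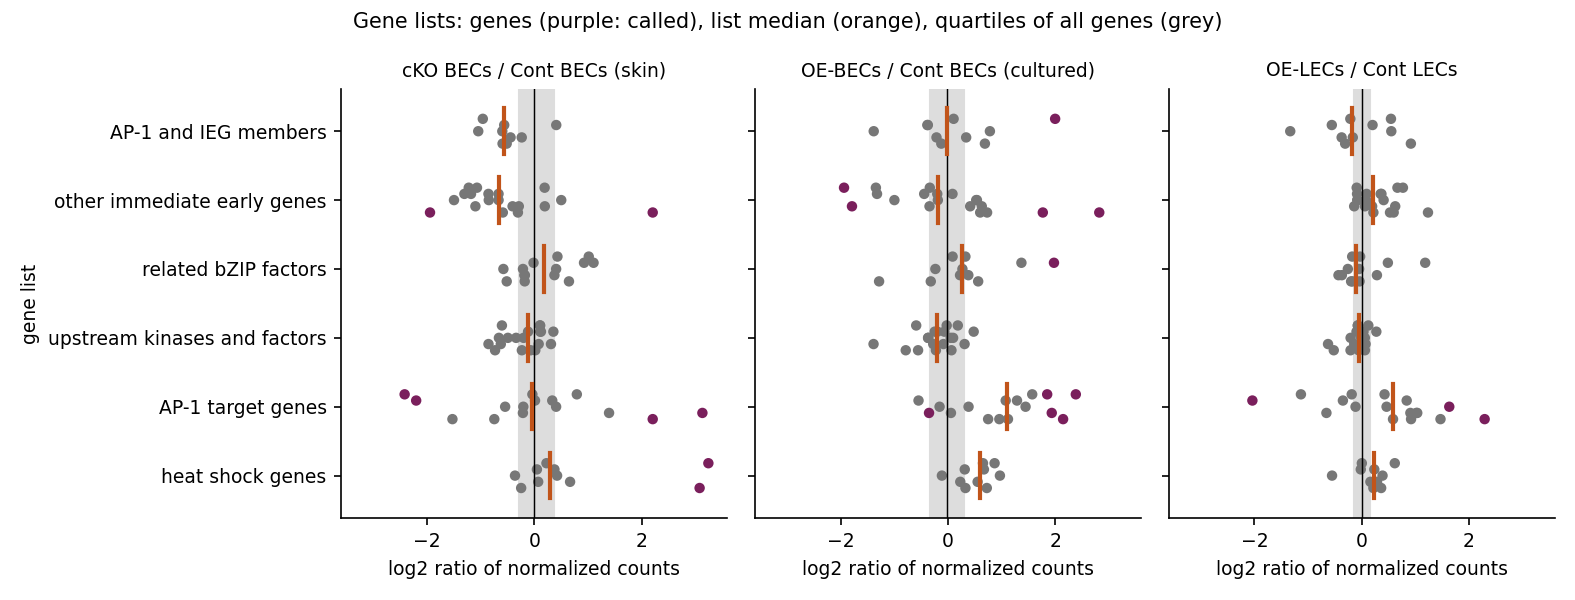
Log2 ratio of normalized counts (changed over control) of every gene above the floor in 6 lists, in the 3 pairs. Orange bars are list medians, purple points called genes, and the grey band spans the quartiles of all genes tested. The AP-1 targets have medians of -0.04, 1.10 and 0.58 in the 3 pairs.

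Across the pairs, which share no library, 4 members (Fos, Fosb, Fosl2 and Ier2) had the interval below 0 in all 3, of the 9 with at least 100 normalized counts in each pair. Of all 8682 such genes, 6.75% did. The 4 include Fos, whose ratios were -1.05, -1.39 and -1.33, and Ier2, whose ratios were -0.59, -0.21 and -0.17. Their direction was thus the same in the pair labelled as a loss and in the pairs with a gain of Dot1l, and the same 4 had it below 0 in both overexpression pairs, as did 13.8% of 9687 genes. Another 3 members (Fosl1, Jun and Atf3) had the interval above 0 in both overexpression pairs, as did 13.1% of those genes.

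Ratios of members within a library do not depend on how libraries are scaled. Per kilobase of exon, Fos was 2.94 times Jun in Cont BECs of the skin and 1.67 times Jun in the library labelled cKO, a 1.75-fold lower ratio (log2 difference -0.81, interval -0.89 to -0.73). In cultured BECs the ratio was 0.983 in the control and 0.219 in OE-BECs, 4.49-fold lower (interval of the log2 difference -2.39 to -1.95). In LECs it was 0.542 and 0.147, 3.69-fold lower (interval -2.12 to -1.65). The Fos to Jun ratio was therefore lower in the changed library of each pair beyond counting error. Such a difference restates the log2 ratios of the members given above, whose values were known beforehand, and is no separate result. Fosl1 to Fos was 0.335 in cultured Cont BECs and 3.49 in OE-BECs, a 10.4-fold difference, and 2.28 and 8.38 in the LEC pair, a 3.68-fold difference. Fos to Fosl2 in the skin pair was the exception, at 21.9 and 20.6, with an interval of the log2 difference from -0.21 to 0.04 that includes 0. Counts from the same library have no replicate behind them here either.

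**Figure D5:**
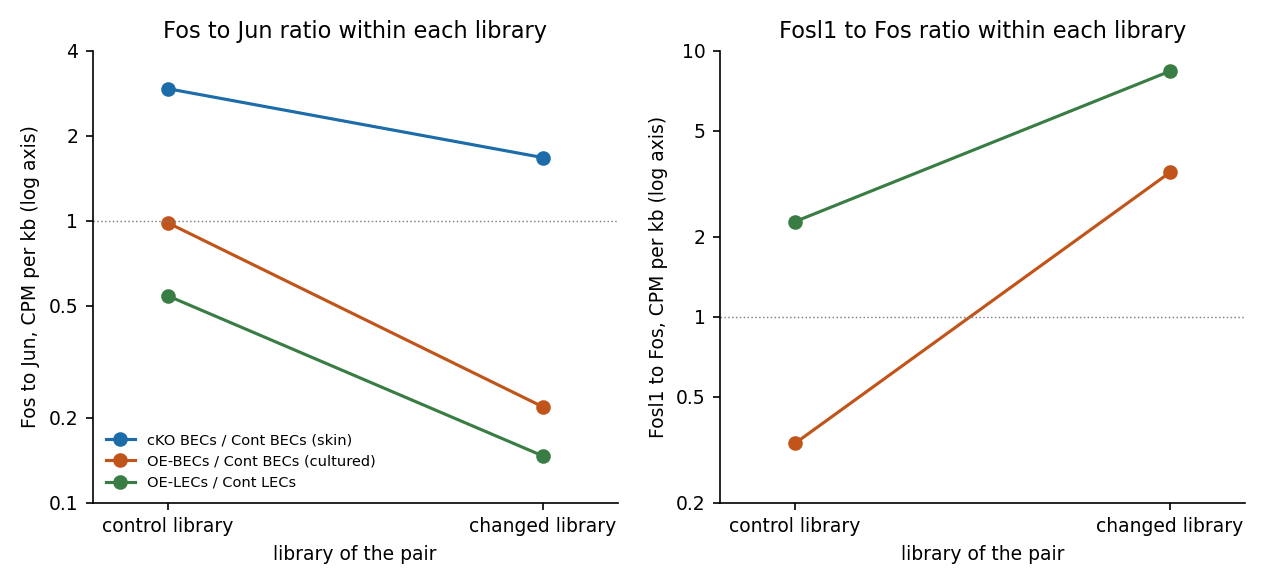
Ratio of Fos to Jun (left) and of Fosl1 to Fos (right) in CPM per kb of exon on a log axis, with a line from the control to the changed library of each pair. Fos to Jun was 0.983 and 0.219 in the BEC pair, and Fosl1 to Fos 0.335 and 3.49; the skin pair is left out on the right because Fosl1 was within the floor.

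Over the 6 libraries, which form a skin pair and 4 cultured libraries, the profiles of Jun and Atf3 on log2(CPM + 1) were the most alike among the members (Pearson r = 0.99, a description over 6 points that share libraries and depth). Fos was most like Junb (r = 0.95) and least like Fosl1 (r = -0.98). Fosb was most like Fos (r = 0.92), Egr1 most like Fos (r = 0.87), and Fosl2 most like Fosl1 (r = 0.84). Jund and Ier2 were most like other members at r = 0.76 and 0.77. Of 11035 other genes with a mean of at least 5 CPM, those nearest to the mean standardized profile of the 10 members included Kiz, Paqr3, 4930581F22Rik, Nnat, Cdk11b, Slx4ip, Son, Cdc42bpa and Tmem245, with r between 0.98 and 0.99. That profile does not stand for all members: Fosl1 (r = -0.68) and Fosl2 (r = -0.35) went against it, Jund (r = 0.18) and Ier2 (r = 0.21) followed it little, and the other 6 had r between 0.71 and 0.93.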

How the data were processed

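RNA-seq of 6 mouse endothelial libraries was used, 1 per group. The authors made ScriptSeq v2 libraries, used skewer v0.2.2 for trimming, STAR v2.7.9a for alignment (mm10) and VERSE v0.1.5 (option -S) for counting, and deposited raw counts, whole numbers whose totals differ between libraries. The 3 columns of changed libraries were each compared with their own control.

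Counts were normalized by the median of ratios of DESeq2 1.42.0 (R 4.3.3) on each pair, and calls follow the rule of the study's methods. No test of a condition was possible with 1 library per group. Intervals of ratios are Clopper-Pearson at 95%, and levels are in CPM. Where 1 library was within the 3-read floor, the log2 ratio was taken against the floor. Shares of all genes tested refer to genes with 10 or more reads over both libraries. Exon union lengths, positions and overlapping genes came from GENCODE M21, which gave a length for 95.7% of the genes. Upstream windows came from RefSeq. Only the calls, ratios and intervals of ratios were tested on simulated Poisson counts, with the library totals as the scaling. Python 3.11.15, scipy 1.17.1, pandas 2.3.3 and edgeR 4.0.16 (TMM alternative) were used.

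The members and lists were chosen with earlier results of these data known. Named genes were the members, Dot1l, the up to 6 called genes per list with at least 100 normalized counts and the largest ratio, and the 10 genes most like the mean profile, except where the text says otherwise. Results for 2 genes are not reported here. The alternatives were other scalings, minimums, folds, a pseudocount and another gene length.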

Additional observations from a re-analysis of the deposited data

Results flagged for a closer look

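Junb, Jund and Egr1 had counting intervals on opposite sides of 0 in the overexpression pairs, and the difference between the cell lines was not tested, since each pair holds 1 library per group. Junb had a log2 ratio of -0.38 in OE-BECs and 0.20 in OE-LECs. It overlaps Prdx2 on the opposite strand, which had 8330 and 10950 reads in the LEC pair and log2 ratios of -0.02 in OE-BECs and 0.16 in OE-LECs. Jund had 0.10 in OE-BECs and -0.21 in OE-LECs, and it overlaps an antisense gene. The counts of Junb and Jund are therefore both uncertain. Egr1 had 0.34 in OE-BECs and -0.37 in OE-LECs, on 3440 and 5862 reads in the overexpressing libraries.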

How the results depend on the processing

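No paired analysis was possible because each group has 1 library and the labels carry no replicate numbers, and no library could be left out for the same reason. The other scalings (library totals, TMM, size factors over all 6 libraries, totals without Rn45s) moved every log2 ratio by at most 0.0553, and none of the 145 values of single members changed sign under a scaling or a pseudocount of 1. The median of the members in OE-BECs, near 0, turned to 0.011 with size factors over all 6 libraries and 0.029 without Rn45s. At 2-fold in place of 3-fold, the members called were 1 in the skin pair, 2 in OE-BECs and 1 in OE-LECs, and 13.5%, 13.7% and 5.96% of all genes tested were called in the same order. Fos is the member called in the skin pair and is lost with library totals (-0.991) and with totals without Rn45s (-0.992). At that fold the lists held, in the skin pair, 8 calls among other immediate early genes and 2 among related bZIP genes (against 2 and 0 at 3-fold). In OE-BECs they held 3 among related bZIP genes, 1 among upstream kinases and factors and 10 among AP-1 targets (against 1, 0 and 5), and in OE-LECs 1 among other immediate early genes, 1 among related bZIP genes and 7 among AP-1 targets (against 0, 0 and 3). A minimum of 20 normalized counts left 3 AP-1 targets in OE-BECs, where 3.61% of all genes tested were called. A minimum of 100, chosen after seeing the data, left 1 other immediate early gene and 2 AP-1 targets in the skin pair, 1 and 3 in OE-BECs, and 1 AP-1 target in OE-LECs, and 1.12%, 1.53% and 0.668% of all genes tested were called in the same order. The call of Fosl1 in OE-BECs held under every scaling and minimum run. With the longest transcript in place of the exon union, Fosl1 gave 29.9% of the FOS family in OE-BECs and 39.6% in OE-LECs, where Fosl2 was then at 51.4%, above Fosl1. In cultured Cont BECs Fosb (22.9%) then slightly exceeded Fos (22.6%).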

Other observations

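Among the related bZIP genes, Maf had 3281 and 5746 reads in the skin libraries and 0 reads in all 4 cultured libraries. Batf had 49 and 121 reads in skin and at most 1 read in culture. Crem, which encodes a factor that binds the cAMP response element, had 642 reads in cultured Cont BECs and 202 in OE-BECs, a log2 ratio of -1.29, against -0.43 in the LEC pair. Mkl2, a cofactor of serum response factor, had log2 ratios of -0.73, -0.79 and -0.52 in the skin, BEC and LEC pairs. Hmox1, an AP-1 target induced by heme and oxidative stress, rose 8.78-fold in the skin pair, on 971 and 11072 reads, and had log2 ratios of 0.05 and -0.11 in OE-BECs and OE-LECs. In the same skin pair Cxcl1 and Il6 were called lower, and Areg was called higher on 3 and 18 reads. These genes were chosen after their values were seen, apart from Hmox1 and Cxcl1. The skin libraries, Cont and labelled cKO, also held reads of macrophage genes (4066 and 6370 CPM) and mast cell genes (2167 and 3064 CPM). Their part in the levels of Maf, Batf and Hmox1 was not tested.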
